A study of Mus musculus with 4 samples.

Results

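The vesicular glutamate transporters VGLUT1, VGLUT2 and VGLUT3, encoded by Slc17a7, Slc17a6 and Slc17a8, were followed in RNA from brain septal tissue of mice. They were found by gene symbol, were on 1 row each and made up 3 of 15409 gene rows. All 3 had a mean of at least 1 CPM (reads divided by the library total, on the usual fixed scale) and so were among the 13912 genes tested. The study compared TCRb-/- mice, which lack the T cell receptor beta chain, with wild-type (WT) mice, with 2 libraries per genotype. Every mouse of both genotypes had been restrained for 30 min on 3 days and was killed 1.5 h after the last session, and unstressed mice were not analysed here. Each library was a pool of 4 to 5 mice, and replicates 1 and 2 of each genotype are labelled as experiments 1 and 2. Errors between libraries are therefore errors between pools, and the SD within a genotype includes the difference between experiments. Age, sex and strain were not given in the sources used here.

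Vesicular glutamate transporters load glutamate from the cytosol into synaptic vesicles, driven by the electrochemical gradient that the vesicular proton pump sets up. A neuron that expresses one of them can release glutamate, which is why their mRNAs are used to mark excitatory neurons. VGLUT1 mRNA is typical of pyramidal and granule neurons of cortex and hippocampus, and VGLUT2 mRNA of thalamic, hypothalamic, habenular and brainstem neurons and of the glutamatergic neurons of the medial septum. VGLUT3 is found in scattered neurons that also use another transmitter, among them cholinergic interneurons of the striatum, serotonin neurons of the raphe and interneurons that express cholecystokinin. Most neurons of the lateral septum are GABAergic.

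In GRCm38 (mm10), Slc17a7 (ENSMUSG00000070570.5) lies on chromosome 7 from 45163949 to 45176142 on the plus strand. Slc17a6 (ENSMUSG00000030500.6) lies on the same chromosome and strand from 51622006 to 51671119, which is 6.45 Mb away. Slc17a8 (ENSMUSG00000019935.16) lies on chromosome 10 from 89574020 to 89621253 on the minus strand. The main transcript of each has 12 exons, with lengths of 2915, 4137 and 4456 bases for Slc17a7, Slc17a6 and Slc17a8. The annotation also places Mir7055 within Slc17a7 and Gm45072 within Slc17a6, and each shares 0 bases with the exons of the main transcript.

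The 250 bases before the RefSeq start of each transporter gene are shown as a description of their promoters. Any part of these sequences in the differences between experiments was not tested. The sequences are from RefSeq (GRCm38.p6), read on the gene's strand, 5′ to 3′. They cover chr7:45163671-45163920 for Slc17a7, chr7:51621580-51621829 for Slc17a6 and chr10:89621250-89621499 for Slc17a8. RefSeq starts differ from the gene bounds given above, so the windows do not end exactly at those bounds. Slc17a6 and Slc17a8 had 2 windows each in the reference, of which the most upstream was used, and Slc17a7 had 1. Capitals mark matches, on either strand, to the GC box GGGCGG bound by Sp1-family factors.
Slc17a7: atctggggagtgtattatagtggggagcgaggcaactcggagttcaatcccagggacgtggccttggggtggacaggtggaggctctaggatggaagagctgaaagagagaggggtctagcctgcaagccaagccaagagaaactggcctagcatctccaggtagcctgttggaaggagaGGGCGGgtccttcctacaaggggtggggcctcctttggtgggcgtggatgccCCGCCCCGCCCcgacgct
Slc17a6: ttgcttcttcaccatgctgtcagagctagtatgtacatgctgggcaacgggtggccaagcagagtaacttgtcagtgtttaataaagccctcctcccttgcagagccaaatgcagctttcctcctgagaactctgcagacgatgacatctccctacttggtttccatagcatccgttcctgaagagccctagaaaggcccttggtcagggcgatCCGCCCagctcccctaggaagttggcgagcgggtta
Slc17a8: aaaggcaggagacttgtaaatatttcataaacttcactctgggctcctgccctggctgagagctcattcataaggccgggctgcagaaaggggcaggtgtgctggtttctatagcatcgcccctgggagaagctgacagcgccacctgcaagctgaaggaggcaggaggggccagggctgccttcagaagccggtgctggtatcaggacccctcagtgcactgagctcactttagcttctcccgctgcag

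The Slc17a7 window held 3 GC boxes, 2 of them overlapping, that of Slc17a6 held 1 and that of Slc17a8 held 0. Of 32851 mouse promoter windows of the same length, 32.7% held at least 1. GC content was 61.2% for Slc17a7, 53.2% for Slc17a6 and 57.2% for Slc17a8, against a median of 52.4% over all windows. The E-box CAGATG of the NeuroD and neurogenin factors (in 14.4% of windows), the TATA box TATAAA (12.4%) and the cyclic AMP response half-site TGACG (17.8%) were searched on both strands and had 0 matches in the 3 windows. These are letter matches in short windows and say nothing of binding.

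The libraries held between 19988137 and 26210790 reads. Trbc2, a constant gene of the deleted receptor chain, had 0 reads in both TCRb-/- libraries, as the labels give. It had 169 and 86 reads in WT replicates 1 and 2. Of 9 septal marker genes chosen to check the tissue, 8 were listed (Trpc4, Zic1, Zic2, Zic4, Crhr2, Avpr1a, Sst and Nts). Their summed level was between 350 and 430 CPM per library. In limma, 0 of 13912 genes (0%) differed by genotype at an adjusted p under 0.05, and 3292 (23.7%) differed between experiments, 1245 higher (8.95%) and 2047 lower (14.7%) in experiment 2. With only 2 libraries on a side the smallest two-sided p that exact permutation allows is 0.333, and the tests below rest on the spread shared across all genes.

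Slc17a7, the cortical type of transporter, was among the genes that differed most between experiments. Its level was 146 CPM in TCRb-/- replicate 1 and 178 CPM in WT replicate 1, against 24.0 CPM in TCRb-/- replicate 2 and 20.9 CPM in WT replicate 2. Both libraries of experiment 2 were thus far below both of experiment 1, whatever the genotype. In TCRb-/- mice the level was 6.09-fold higher in experiment 1, and in WT mice 8.52-fold. These levels rest on 3593 and 480 reads in the TCRb-/- pools of experiments 1 and 2, and on 4662 and 467 reads in the WT pools. The exact 95% interval of the lowest experiment 1 library (141 to 151 CPM) lies well above that of the highest experiment 2 library (21.9 to 26.3 CPM), for counting error only.

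Between experiments, Slc17a7 fell by 2.79 on the log2(CPM + 1) scale (SE 0.11, adjusted p 1.43e-04 in limma, lower in both genotypes). It ranked 1 of 13912 genes by p and 2 by the size of the fall, behind Neurod6. The median over all genes tested was -0.03. Its adjusted p was 8.52e-05 with the replicate block, which here means genotype and experiment in the same model and which called 24.7% of all genes between experiments. It was 0.0559 when the block was combined with moderation that assumes 1 common prior variance for all genes. Genes with no overlap between experiments and lower in experiment 2 made up 37.2% of all tested, so that the lack of overlap alone is common here.

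**Figure D1:**
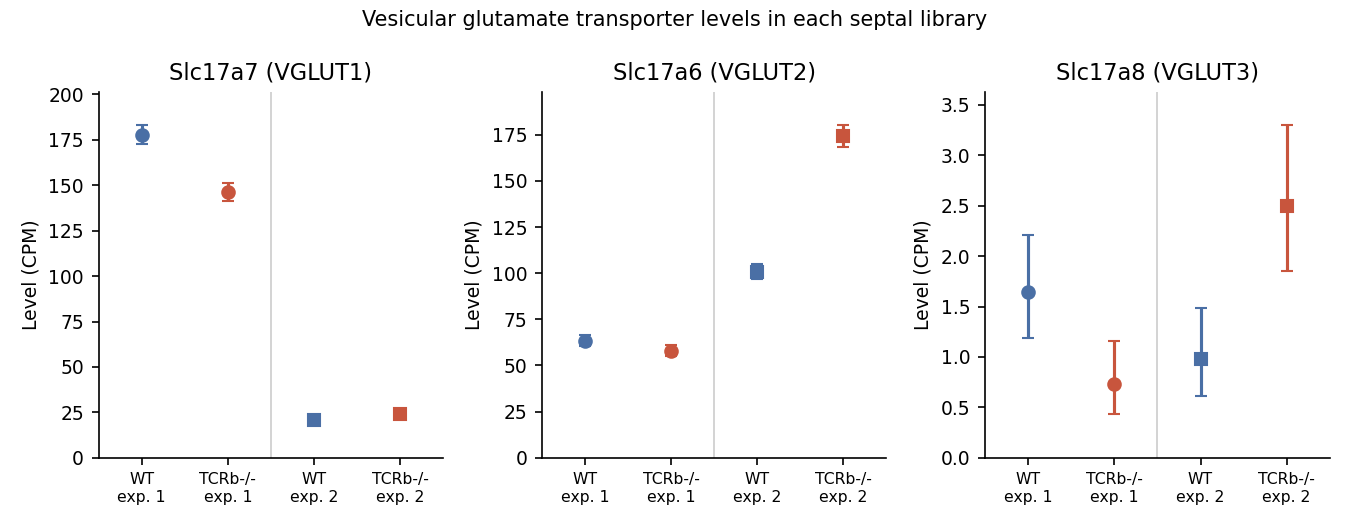
Level in CPM of each transporter (y axis, linear, from 0) in the 4 libraries (x axis), blue for WT and red for TCRb-/-, circles for experiment 1 and squares for experiment 2. Bars are exact 95% counting intervals. Slc17a7 lies at 146 and 178 CPM in experiment 1 and at 20.9 and 24.0 CPM in experiment 2, Slc17a6 is highest at 174 CPM in TCRb-/- replicate 2, and Slc17a8 stays between 0.732 and 2.50 CPM.

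Slc17a6, the thalamic and medial septal type, moved the other way. It had 57.9 CPM in TCRb-/- replicate 1 and 63.4 CPM in WT replicate 1, and 174 CPM in TCRb-/- replicate 2 and 101 CPM in WT replicate 2. The experiment 1 libraries were close to each other, both experiment 2 libraries were higher, and TCRb-/- replicate 2 stood above all others. The rise was 3.01-fold in TCRb-/- and 1.59-fold in WT mice. Read counts ran from 1424 to 3484, so counting error is small beside these differences.

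The log2 difference of Slc17a6 between experiments was 1.12 (SE 0.21, adjusted p 0.0119 in limma, higher in both genotypes), and 48 of the 1245 genes called higher had a larger difference. With the replicate block the adjusted p was 0.00617. The call was lost without TCRb-/- replicate 1 (log2 difference 1.05, adjusted p 0.0558) and with a common prior variance (adjusted p 0.0634, or 0.0754 with the block added). Without TCRb-/- replicate 2, the library with the highest value, the difference was 0.73 and the gene was still called (adjusted p 3.45e-04). Genes that were higher in experiment 2 with no overlap made up 30.1% of all tested.

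Slc17a8 was near the lower end of the listed genes. It had 18 and 50 reads in the TCRb-/- pools of experiments 1 and 2, and 43 and 22 reads in the WT pools. The levels were 0.732 CPM (exact 95% interval 0.434 to 1.16) and 2.50 CPM (1.86 to 3.30) in TCRb-/-, and 1.64 CPM (1.19 to 2.21) and 0.984 CPM (0.617 to 1.49) in WT. TCRb-/- mice thus gave both the lowest and the highest library, and both the genotypes and the experiments overlapped. Between experiments the log2 difference was 0.30 (SE 0.32, adjusted p 0.517 in limma), made of 1.02 in TCRb-/- and -0.41 in WT mice. The sign turned when either TCRb-/- library was left out, to -0.0027 without replicate 1 and to -0.11 without replicate 2. The SE is as large as the difference, so the p shows no equality.

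**Figure D2:**
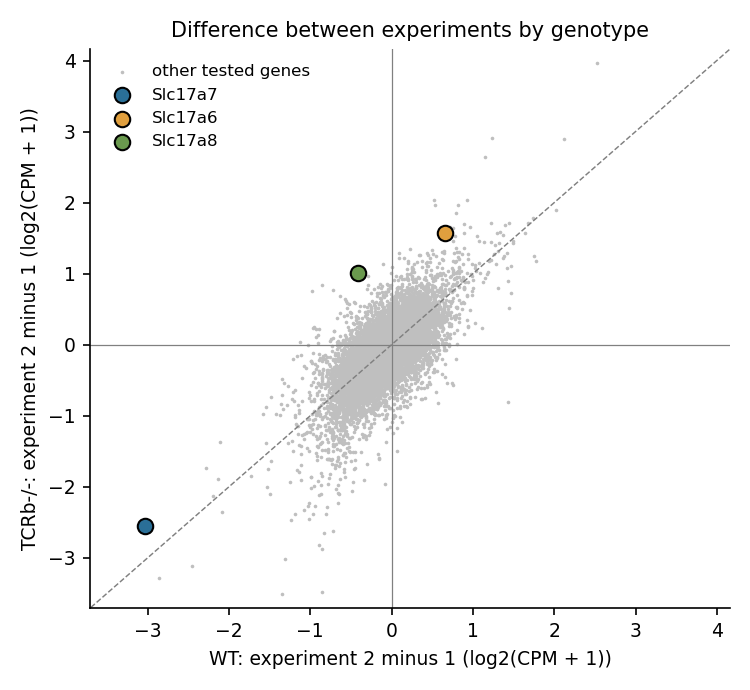
Difference between experiments, experiment 2 minus experiment 1, on the log2(CPM + 1) scale in WT mice (x axis) and in TCRb-/- mice (y axis). Grey points are the other tested genes and the dashed line marks equal differences. Slc17a7 lies at the lower left edge (-3.03 in WT, -2.56 in TCRb-/-), Slc17a6 at the upper right (0.66 and 1.57), and Slc17a8 has opposite signs (-0.41 and 1.02).

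As a result the order of the transporters turned around between experiments. Per kilobase of main transcript, Slc17a7 had 50.1 and 61.0 CPM in TCRb-/- and WT replicates 1, where Slc17a6 had 14.0 and 15.3. In replicates 2, Slc17a7 had 8.24 and 7.17 CPM per kilobase, and Slc17a6 had 42.1 and 24.4. Slc17a7 was thus 3.58-fold and 3.98-fold above Slc17a6 in experiment 1, and Slc17a6 was 5.11-fold and 3.40-fold above Slc17a7 in experiment 2, TCRb-/- first. With the union of all annotated exons as the length, these ratios were 2.53, 2.81, 7.25 and 4.82, in the same order. Slc17a8 was the lowest in every library, between 0.164 and 0.561 CPM per kilobase of main transcript. No neighbours in the order changed place between the genotypes of the same experiment.

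As shares of the 3 transporters per transcript length, Slc17a7 made up 78.0% and 79.5% in TCRb-/- and WT replicates 1, and 16.2% and 22.6% in replicates 2. The share of Slc17a6 went from 21.8% and 20.0% to 82.7% and 76.7%, and Slc17a8 stayed between 0.256% and 1.10%. Per kilobase of main transcript, the sum of the 3 transporters was lower in experiment 2 in both genotypes. Without division by length, it was 205 and 201 CPM in the TCRb-/- pools of experiments 1 and 2, and 243 and 123 CPM in the WT pools. The size of the fall in TCRb-/- mice thus depends on the length used. The sum per kilobase was 64.3 and 50.9 CPM in the TCRb-/- pools of experiments 1 and 2, and 76.7 and 31.8 in the WT pools.

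**Figure D3:**
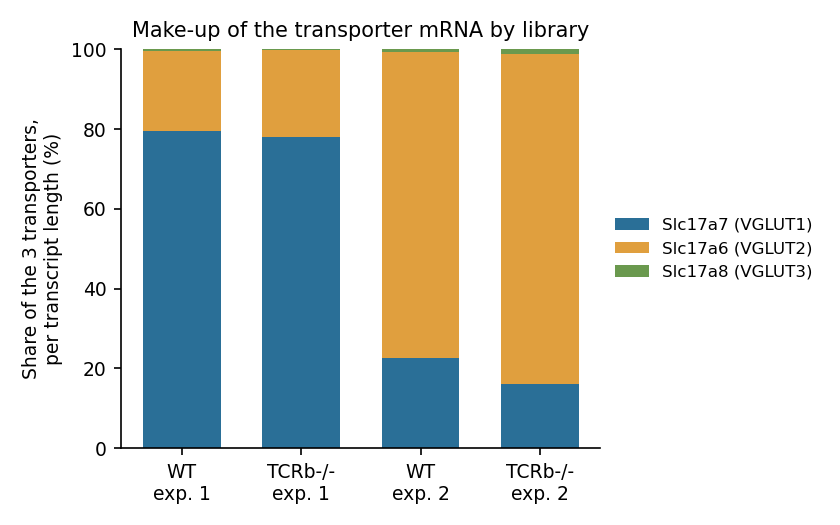
Share of each transporter in the summed level of the 3, per kilobase of main transcript (y axis, percent), for the 4 libraries (x axis). Slc17a7 makes up 78.0% and 79.5% of the bars of experiment 1, and Slc17a6 makes up 82.7% and 76.7% of those of experiment 2.

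The comparison the study was set up for, TCRb-/- against WT, called 0 of the 3 transporters, as it called 0 of all genes. Trbc2, with 0 reads in both TCRb-/- libraries and 169 and 86 reads in WT, was thus not called either. The lack of calls therefore shows no equality between the genotypes. Slc17a7 had 85.1 ± 86.4 CPM in TCRb-/- and 99.4 ± 111 CPM in WT (SD, n = 2 pools each), a log2 difference of -0.04 (SE 1.22). Slc17a6 had 116 ± 82.3 and 82.1 ± 26.5 CPM, a difference of 0.33 (SE 0.53). Slc17a8 had 1.62 ± 1.25 and 1.31 ± 0.464 CPM, a difference of 0.11 (SE 0.39). The unadjusted limma p was 0.972 for Slc17a7, 0.564 for Slc17a6 and 0.797 for Slc17a8, and 43 of all genes (0.309%) had one under 0.05. With the replicate block, which takes out the difference between experiments, the SE was 0.11, 0.18 and 0.33, and the unadjusted p 0.708, 0.105 and 0.756 for Slc17a7, Slc17a6 and Slc17a8. The block called 2 genes (0.0144%), neither of them a transporter, and 784 (5.64%) had an unadjusted p under 0.05. Leaving out TCRb-/- replicate 1 gave 47 calls over all genes, with Slc17a6 among them (log2 difference 1.11, adjusted p 0.0457 in limma). That fit sets a TCRb-/- library of experiment 2 against WT libraries of both experiments. Without TCRb-/- replicate 2 the Slc17a6 difference was -0.46.

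Within experiments, each genotype difference changed sign. Slc17a6 was 1.09-fold lower in TCRb-/- than in WT in experiment 1 and 1.73-fold higher in experiment 2, on the log2 scale -0.13 and 0.78. A larger genotype difference than that of Slc17a6, in either direction, was seen in 44.7% of all tested genes in experiment 1 and in 1.11% in experiment 2. Slc17a7 was 1.22-fold lower in experiment 1 and 1.15-fold higher in experiment 2, and Slc17a8 was 2.24-fold lower and 2.54-fold higher. There is 1 library per genotype in each experiment, so these within-experiment values have no replicate check.

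Of 13 genes for glutamate synthesis, uptake and recycling, 2 fell between experiments in limma, 0 rose and 11 did not pass, near the shares of all genes (14.7% lower and 8.95% higher), and the median log2 difference of -0.03 was close to that of all genes. The 2 were Slc1a1, which encodes the neuronal glutamate transporter EAAC1 (-0.39, adjusted p 0.0154), and Slc1a2, which encodes the astrocytic transporter GLT-1 (-0.32, adjusted p 0.0133). By genotype 0 of 13 passed, with a median of -0.04.

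Of the other vesicular transporters, Slc30a3 differed between experiments. It encodes ZnT3, which loads zinc into vesicles of cortical and hippocampal glutamatergic terminals that also carry VGLUT1. It had 14.0 and 18.1 CPM in TCRb-/- and WT replicates 1 and 8.15 and 6.49 CPM in replicates 2 (log2 difference -1.03, adjusted p 0.00827 in limma). Slc32a1, the vesicular GABA transporter VGAT of the inhibitory neurons, had between 35.1 and 44.7 CPM and did not pass (adjusted p 0.545). Slc18a3, the vesicular acetylcholine transporter, had between 11.3 and 16.6 CPM (adjusted p 0.108), and Slc18a2, the vesicular monoamine transporter, between 14.3 and 17.7 CPM (adjusted p 0.413). Slc18a1 was under 1 CPM on average and was not tested. Of the 6 other SLC17 genes only Slc17a5, which encodes the lysosomal sialic acid transporter sialin, was among the listed rows, with 18.5 to 20.2 CPM in the 4 libraries (adjusted p 0.767). Slc17a1, Slc17a2, Slc17a3, Slc17a4 and Slc17a9 were not analysed here.

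Some markers of the regions that surround the septum also differed between experiments, and the shares of all genes called, to set beside the counts, were 8.95% higher and 14.7% lower. Of 18 genes of cortical and hippocampal excitatory neurons, 9 fell, 0 rose and 9 did not pass in limma, with a median log2 difference of -0.54. Neurod6 and Neurod2, transcription factors of cortical and hippocampal pyramidal neurons, fell by 3.08 and 2.79, about as far as Slc17a7. Neurod6 had 22.0 and 31.7 CPM in TCRb-/- and WT replicates 1 and 1.35 and 3.49 CPM in replicates 2. Camk2a, a kinase subunit abundant in forebrain excitatory neurons, fell by 0.68, while Prox1, a factor of dentate granule cells, had a difference of the opposite sign and did not pass (0.19, adjusted p 0.470). The summed level of the list was 1316 and 1255 CPM in TCRb-/- and WT replicates 1 and 789 and 931 CPM in replicates 2. Most of that sum came from Nrgn, Camk2a and Wfs1 (462, 304 and 174 CPM in TCRb-/- replicate 1), so it says little of the genes at low levels.

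Of 13 thalamic genes, 6 rose between experiments, 0 fell and 7 did not pass, with a median of 0.70. Taken by genotype, the median difference between experiments was 1.22 in TCRb-/- and 0.22 in WT mice. Tcf7l2, a transcription factor of thalamic neurons, had 43.6 and 56.5 CPM in TCRb-/- and WT replicates 1 and 182 and 108 CPM in replicates 2 (log2 difference 1.48, adjusted p 0.00669 in limma). Gbx2, a homeobox gene of the developing thalamus, rose by 1.39 (adjusted p 0.0117). All 13 thalamic genes were highest in TCRb-/- replicate 2, as Slc17a6 was. This was not particular to them, and the share over all genes was not worked out. The same library was highest for 10 of 10 choroid plexus, 7 of 9 hypothalamic and preoptic, 5 of 8 septal and 4 of 6 astrocyte genes. It was highest for 3 of 18 cortical and hippocampal and 0 of 10 striatal genes. The median genotype difference of the list was -0.21 in experiment 1 and 0.71 in experiment 2, beside -0.13 and 0.78 for Slc17a6. The summed level of the list was 521 and 519 CPM in TCRb-/- and WT replicates 1 and 911 and 627 CPM in replicates 2.

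Slc17a6 is also a transporter of the hypothalamus and the habenula. Of 6 tested hypothalamic and preoptic genes, 5 rose between experiments, 0 fell and 1 did not pass, with a median of 1.43. Among them Avp, which encodes vasopressin, had 5.74 and 9.19 CPM in TCRb-/- and WT replicates 1 and 104 and 57.8 CPM in replicates 2, and Oxt, which encodes oxytocin, rose by 2.51 (adjusted p 0.00156). The summed level of the 9 listed genes was 76.0 and 90.3 CPM in replicates 1 and 387 and 295 CPM in replicates 2, TCRb-/- first, and the defining genes Hcrt and Pmch were not among the listed rows. Of 7 habenular genes sought, 6 were listed and Pou4f1 was not. Of these 6, 2 rose, 0 fell and 4 did not pass (median 0.52, summed level 37.2 to 60.6 CPM). Of all genes, 8.95% were called higher.

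Of 8 genes of the septum itself, 3 rose (Zic1, Zic4 and Nts), 0 fell and 5 did not pass, with a median of 0.28, where 8.95% of all genes were called higher. Of 7 genes of basal forebrain cholinergic neurons, which lie in the medial septum beside the VGLUT2 neurons, 1 fell (Slc5a7, the choline transporter, by 0.79) and 6 did not pass (median -0.08), which is near the 14.7% of all genes called lower. Genes shared by all neurons had 2 rises and 2 falls of 5 (median 0.03).

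For Slc17a8, the companion markers gave no common direction. Of 5 genes of interneurons that express cholecystokinin and the CB1 receptor, 1 rose (Sncg, 0.52) and 2 fell (Vip, -1.10, and Cnr1, -0.34) between experiments, where 8.95% of all genes were called higher and 14.7% lower. Cck itself had 51.3 and 68.8 CPM in the TCRb-/- pools of experiments 1 and 2 and 65.8 and 44.7 CPM in the WT pools, and so was highest in TCRb-/- replicate 2 as Slc17a8 was. Of the raphe genes, Tph2, which encodes the serotonin-making enzyme of neurons, had 0.850 to 1.56 CPM, and Slc6a4 and Fev were not analysed here.

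Other regions moved as well. Of 10 genes of striatal projection neurons 10 fell between experiments (median -1.54, lowest in TCRb-/- replicate 2 for 10 of 10). Of 10 choroid plexus genes 9 rose (median 1.26, highest in TCRb-/- replicate 2 for 10 of 10). How many of all genes were lowest or highest in that library was not worked out. In glia and vessels, 1 of 6 astrocyte genes rose and 0 fell (median 0.09), 1 of 5 oligodendrocyte genes and 1 of 4 microglial genes fell and 0 rose (medians -0.05 and -0.17), and 0 of 3 tested endothelial genes passed (median -0.23). With 3 to 6 genes in each of these lists, such counts are near the shares of all genes (8.95% higher and 14.7% lower). The part of these regional markers in the transporter differences was not tested. In pooled tissue, fewer cells of a type and less RNA per cell cannot be told apart. By genotype, limma called 0 genes of every list named here, and with the replicate block it called 1, a choroid plexus gene.

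**Figure D4:**
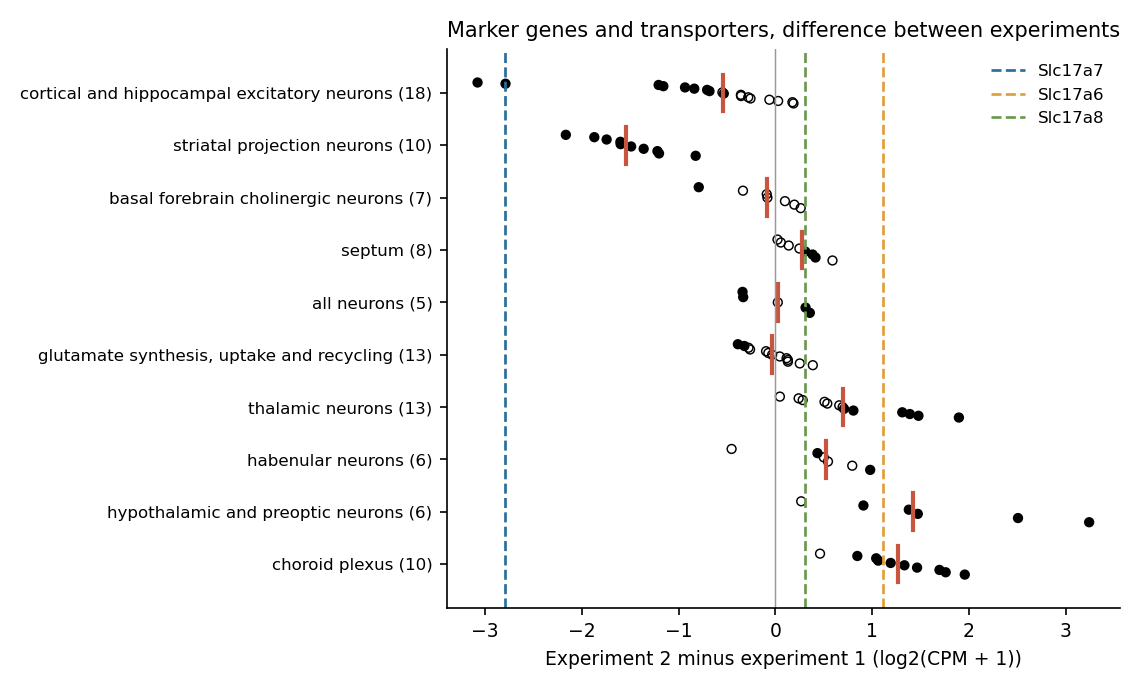
Difference between experiments, experiment 2 minus experiment 1 on the log2(CPM + 1) scale (x axis), for the tested genes of 10 marker lists (y axis, number of genes in parentheses). Each point is a gene, filled where its adjusted p in limma was under 0.05, red bars are list medians, and dashed lines mark the transporters. Slc17a7 at -2.79 lies beside Neurod6 and Neurod2 at the low end of the cortical list, and Slc17a6 at 1.12 lies within the range of the thalamic, hypothalamic and choroid plexus lists.

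The genes whose profiles over the 4 libraries were most like those of the transporters were sought among the 9819 genes that averaged at least 10 CPM. Likeness was the Euclidean distance between log2(CPM + 1) values after taking out each gene's mean, and with only 4 libraries it is a description. For Slc17a7 they were Prss12 (distance 0.789), Nov, Neurod6, Acta2 and Rasl10a (1.28). Prss12 encodes the neuronal protease neurotrypsin, and Acta2 the actin of smooth muscle. Prss12 had 16.1 and 19.2 CPM in TCRb-/- and WT replicates 1 and 3.60 and 3.58 CPM in replicates 2. It shares the order of experiments with Slc17a7, which follows from the choice by likeness over the same libraries.

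For Slc17a6 the nearest were Cpne9 (0.0922), Epn3, Lhx9, Gbx2 and Calb2 (0.304). Cpne9, a member of the copine family of calcium-dependent membrane-binding proteins, had 25.5 and 75.6 CPM in the TCRb-/- pools of experiments 1 and 2, and 25.8 and 44.9 CPM in the WT pools. Calb2 encodes the calcium-binding protein calretinin and had 330.0 and 912 CPM in TCRb-/- and 312 and 657 CPM in WT. For Slc17a8 they were Vwc2l (0.208), Pter, Inpp4b, Ptpn4 and Gtf2ird2 (0.328). All 5 were highest in TCRb-/- replicate 2, and none was called between experiments (adjusted p 0.159 to 0.611 in limma). Slc17a8 has both traits too, so they largely follow from the choice by likeness over the same libraries.

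**Figure D5:**
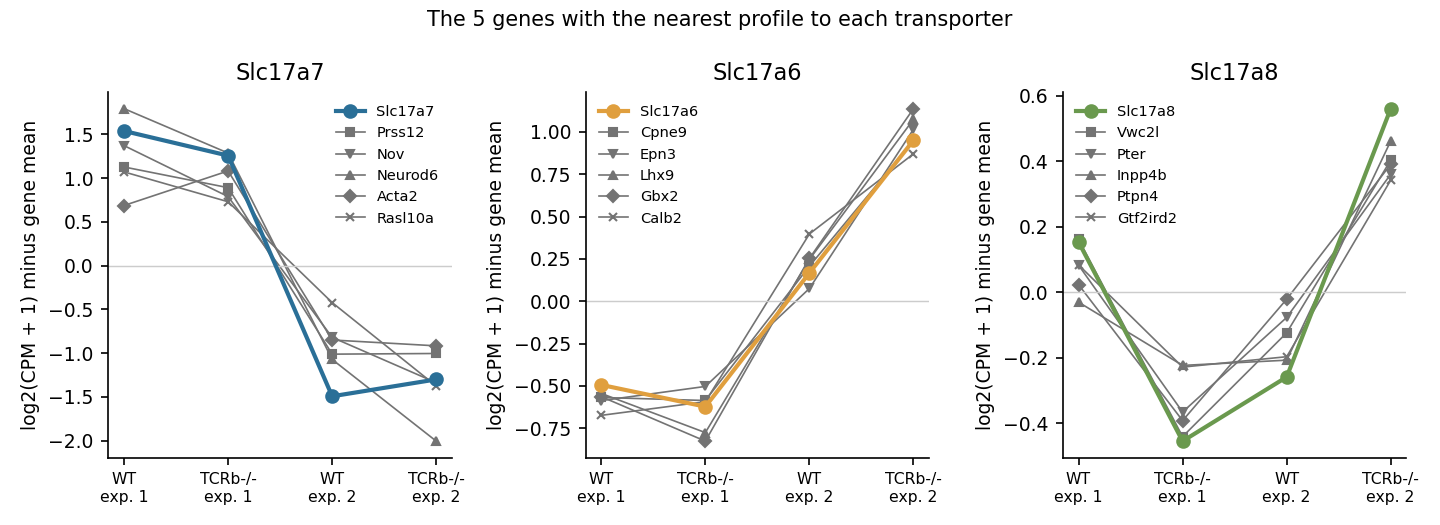
Log2(CPM + 1) minus the mean of the gene (y axis) in the 4 libraries (x axis) for each transporter (coloured) and its 5 nearest genes (grey). Lines join libraries only to guide the eye. The nearest gene to Slc17a6 was Cpne9 at a distance of 0.0922, while that of Slc17a7 was Prss12 at 0.789.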

How the data were processed

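RNA from cleared lysate of septal tissue was made into libraries with the SMARTer ultra-low-input kit, per the labels' protocols. Per the submitters' processing notes, the tools were HISAT2 2.1.0, SAMtools 1.3, HTSeq 0.9.1, R 4.0.5 and limma 3.46.0, and the build was mm10. The role of each tool and the rule for keeping rows were not given in the sources used here. The deposited values were log2 of CPM with 0.5 added to each read count, by their values. Solving for the library total gave whole reads for 100% of the values within 0.001 reads. The 17 spike-in rows were left out. 1 read was worth between 0.0382 and 0.05 CPM.

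Reads were turned into log2(CPM + 1), which understates changes of low genes, and genes that averaged at least 1 CPM were tested with limma 3.58.1 in R 4.3.3 (mean-variance trend, two-sided, Benjamini-Hochberg over all 13912 genes, threshold 0.05). Genotype or experiment was the only term. Both comparisons use the same 4 libraries. The script was tested on simulated data. Other steps used Python 3.11.15 (scipy 1.17.1, pandas 2.3.3, numpy 2.4.6). Lengths and positions came from GENCODE M21. Intervals are exact Clopper-Pearson at 95% and cover counting error only, since amplified reads are not independent molecules.

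The labels tie replicate numbers to experiments, which pairs the libraries by number, and deviations from the genotype mean correlated at 0.72 across genes between same-numbered libraries. Replicates differed beyond sampling noise (chi-square per degree of freedom 52.1 for TCRb-/- and 30.3 for WT). The alternatives were 2 other scalings, 2 pseudocounts, 2 filters, moderation without a trend, the replicate block and the omission of each library. Voom weights, and the block combined with them or with no trend, were chosen after seeing the data.

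The transporters, the gene lists and the rule for naming genes were chosen with earlier results of these data known. The rule named the 3 transporters, any member of a list within its list, and the 5 genes most like each transporter.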

Additional observations from a re-analysis of the deposited data

Results flagged for a closer look

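The genotype differences of the transporters had opposite signs in the experiments, each of which holds 1 library per genotype, so the differences were not tested. The log2 difference between TCRb-/- and WT was larger in experiment 2 than in experiment 1 by 0.47 for Slc17a7 (-0.28 and 0.19 in experiments 1 and 2), by 0.91 for Slc17a6 (-0.13 and 0.78) and by 1.43 for Slc17a8 (-0.61 and 0.82). The difference between experiments of Slc17a8 likewise had opposite signs in the genotypes, with the same gap of 1.43 (1.02 in TCRb-/- and -0.41 in WT), which is the same contrast read the other way. Slc17a8 rests on 18 to 50 reads per library.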

How the results depend on the processing

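With all libraries kept, the transporters held their direction under every alternative run, and 61 of 64 values also held their side of the threshold. Between experiments, Slc17a6 lost its call with no trend (1.12) and with the replicate block and no trend (1.12), and Slc17a7 lost it with the replicate block and no trend (-2.79). The counts of called genes that moved were, by genotype, 2 with the replicate block and 2 with the replicate block and voom weights, and, between experiments, 629 with no trend and 0 with the replicate block and no trend. The fits without a trend give all genes 1 prior variance, and no other cause was tested. The block changed no transporter's call. In the gene lists, between experiments, the block gave a net gain of 1 call in each of 5 lists. The counts were then 10 cortical genes lower and 7 thalamic, 3 habenular, 4 septal and 10 choroid plexus genes higher. Among the habenular genes, Tac2 and Gpr151 gained a call and Gng8 lost its call. The counts of the other lists stayed as they were. Slc17a8 has a mean under 10 CPM and so has no value under the stricter filter.

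Leaving out 1 library leaves 1 library in a group, assumed to vary like the others, and unbalances experiments or genotypes. By genotype, the count then ranged from 0 to 47, Slc17a7 from -1.56 to 1.47, Slc17a6 from -0.46 to 1.11 and Slc17a8 from -0.40 to 0.61. Between experiments, the count ranged from 1406 to 3390, Slc17a7 from -2.93 to -2.65, Slc17a6 from 0.73 to 1.51 and Slc17a8 from -0.11 to 0.71. The counts by genotype were 47 without TCRb-/- replicate 1 and 1 without TCRb-/- replicate 2. Between experiments they were 1406, 1823 and 1637 without TCRb-/- replicate 1, TCRb-/- replicate 2 and WT replicate 1. Of the transporters, Slc17a8 has the fewest reads and the widest counting intervals.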
